A study of Mus musculus with 12 samples.

Results

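Lineage transcription factors are the regulators that commit early embryonic cells to one fate, and 36 of them, out of 18194 genes measured, were followed in mouse embryonic stem cells that lose the transcription factor Ronin. The members comprised 11 factors of the trophectoderm and placenta, 13 of the mesoderm and 12 of the neural lineage. Each was found by its symbol among array probe sets annotated with a single gene, and the probe set with the highest mean over all 12 arrays stood for the gene. All 36 were found, and no filter on dim genes was applied, so all 36 were tested.

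The cells were a line of mouse embryonic stem cells in which both alleles of Thap11, the gene for Ronin, were floxed, that is, flanked by sites for Cre recombinase. CreERT2, a Cre recombinase switched on by tamoxifen, was carried by knockout cells, whereas control cells had the floxed alleles without it. Both received 0.25 µM tamoxifen and were collected on days 1.5, 3 and 6, with a split on day 4. Each of the 6 groups had 2 arrays, each hybridised with total RNA. CreERT2 was in all knockout arrays and no control array, so its own effect cannot be told apart from the loss of Thap11. The promoter that drives CreERT2 and the number of clones per genotype are not given in the sources used here.

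Embryonic stem cells stand for the epiblast of the blastocyst and do not normally form trophectoderm, the outer layer that gives rise to the placenta. On leaving pluripotency they can enter the primitive streak, where T-box, Mesp and Mix factors direct cells into mesoderm, or become neuroectoderm, which Sox1 marks early. In pluripotent cells many promoters of such factors are rich in CpG dinucleotides and are held at low output by Polycomb repressive complexes.

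The promoters shown here belong to Sox1, Tbx20 and Gata3, the members with the largest rises, to Pax6, of which 1 of several probe sets rose by a like amount, and to Neurog1 and Elf5, which were at background throughout. Each is the 250 bases before a RefSeq transcript start (GRCm38.p6), 5′ to 3′ on the gene's own strand, with CpG dinucleotides in capitals. Sox1 lies at chr8:12395269-12395518 (plus strand), Tbx20 at chr9:24774304-24774553 (minus), Gata3 at chr2:9878601-9878850 (minus), Pax6 at chr2:105668646-105668895 (plus), Neurog1 at chr13:56252181-56252430 (minus) and Elf5 at chr2:103411848-103412097 (plus).
Sox1: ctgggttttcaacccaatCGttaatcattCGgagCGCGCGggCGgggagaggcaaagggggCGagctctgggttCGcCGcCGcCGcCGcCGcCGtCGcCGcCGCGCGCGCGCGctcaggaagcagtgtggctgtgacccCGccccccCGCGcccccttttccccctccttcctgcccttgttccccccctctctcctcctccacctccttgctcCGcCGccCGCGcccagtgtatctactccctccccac
Tbx20: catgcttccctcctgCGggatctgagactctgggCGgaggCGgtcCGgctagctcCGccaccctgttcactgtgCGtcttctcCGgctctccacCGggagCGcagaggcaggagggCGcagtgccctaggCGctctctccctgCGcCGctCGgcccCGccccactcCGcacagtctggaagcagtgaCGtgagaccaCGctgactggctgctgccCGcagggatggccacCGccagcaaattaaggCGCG
Gata3: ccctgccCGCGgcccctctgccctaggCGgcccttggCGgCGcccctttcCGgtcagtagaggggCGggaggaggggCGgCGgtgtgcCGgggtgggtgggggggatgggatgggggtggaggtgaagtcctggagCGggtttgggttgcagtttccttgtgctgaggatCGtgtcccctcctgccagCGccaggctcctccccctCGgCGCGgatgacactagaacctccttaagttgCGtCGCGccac
Pax6: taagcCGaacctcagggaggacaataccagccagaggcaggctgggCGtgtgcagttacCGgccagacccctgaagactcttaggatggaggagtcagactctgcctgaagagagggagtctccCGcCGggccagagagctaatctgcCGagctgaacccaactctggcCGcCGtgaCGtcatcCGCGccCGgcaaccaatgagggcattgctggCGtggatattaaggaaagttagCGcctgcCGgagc
Neurog1: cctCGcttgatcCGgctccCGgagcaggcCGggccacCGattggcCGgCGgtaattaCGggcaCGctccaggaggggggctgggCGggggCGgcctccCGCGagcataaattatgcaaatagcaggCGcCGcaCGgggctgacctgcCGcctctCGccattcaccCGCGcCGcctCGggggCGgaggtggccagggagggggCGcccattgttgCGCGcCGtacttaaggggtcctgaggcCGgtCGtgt
Elf5: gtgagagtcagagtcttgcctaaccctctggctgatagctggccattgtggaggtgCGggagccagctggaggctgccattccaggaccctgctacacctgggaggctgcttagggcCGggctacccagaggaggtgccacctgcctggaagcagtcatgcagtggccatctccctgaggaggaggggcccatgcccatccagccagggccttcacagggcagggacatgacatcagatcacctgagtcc

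Sox1 and Neurog1 each held 29 CpG, Tbx20 22, Gata3 19, Pax6 15 and Elf5 2, at the 93.2, 85.2, 80.3, 72.7 and 18.8 percentiles of all 32851 RefSeq promoter entries of that length. Entries were found for 29 members, with 34 starts in all. Their median was 16 CpG against 6 for all entries, and 17 of the 34 lay above the upper quartile of all entries, which was 16. The 15 starts of factors at background in all groups ran from 2 to 29 CpG, with a median of 13, and the 12 starts of factors above background in all groups from 2 to 32, with a median of 18. Zic1, with 27, Lhx1, with 26, and Gsc, with 22, were at background throughout and as rich in CpG as Tbx20 or richer. Pax6 and Elf5 each had a second start, with 15 and 8 CpG. These counts describe the sequence, and no binding or methylation data bear on them here.

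The deletion was checked first through the intensity of Thap11. It was 1262 and 1181 in controls and 327.4 and 354.2 in knockout cells on day 1.5, then 1279 and 1290 against 110.2 and 92.7 on day 3, and 1305 and 1382 against 50.6 and 51.5 on day 6. The groups did not overlap on any day, and the log2 fold changes were -1.84, -3.67 and -4.72 (limma adjusted p of 1.2e-05, 1.4e-07 and 1.4e-08). Whether the probes lie inside the deleted part was not analysed here. The 10 pluripotency markers, Pou5f1 and Nanog among them, were above background in every group, with a summed intensity of 76410 to 79890 on all 12 arrays. The brightest, Dppa5a, held 24140 to 25750 of that sum. Replicate arrays correlated across genes at r from 0.99816 to 0.99856.

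Most lineage factors were dim. The files hold no detection calls, so a background limit was taken from 148 probe sets of gene families restricted to other tissues, such as odorant, taste and vomeronasal receptors. Their median intensity was 12.3 and their 95th percentile, used as the limit, was 39.8. On this scale 14 of the 36 factors were at background in all 6 groups, 6 in some groups and 16 in none. By the mean over all 12 arrays, 19 of the 36 (52.8%) were at or under the limit, where 33.5% of all genes were.

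The lineages differed in these counts. Among the trophectoderm and placental factors, only Elf5, a regulator that maintains trophoblast stem cells, was at background throughout, while Cdx2, Gata3 and Tfap2a were at background in some groups. Among the mesodermal factors 6 of 13 were at background throughout, namely Gsc, Tbx6, Evx1, Msgn1, Lhx1 and Hand2, and Snai1 and Tbx20 were at background in 5 groups each. Among the neural factors 7 of 12 were, namely Neurog1, Neurog2, Zic1, Lhx2, Pax3, Pax7 and Hoxb1, and Sox1 was so in the 3 control groups. The brightest members were Tfap2c, from 1001 to 2682, Neurod1, from 391.4 to 576.1, Sox11, from 361.5 to 554.4, and Ascl2, from 217.3 to 294.8. Intensities of different probe sets do not rank the genes by transcript number. Just inside the limit by 12-array mean were Gata3 at 38.2 and Tfap2a at 39.0, and just outside were Mixl1 at 43.9 and Dlx3 at 44.3. With the 90th percentile as the limit, 28.7, the count at background throughout was 9, and with the 99th, 98.1, it was 25.

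**Figure D1:**
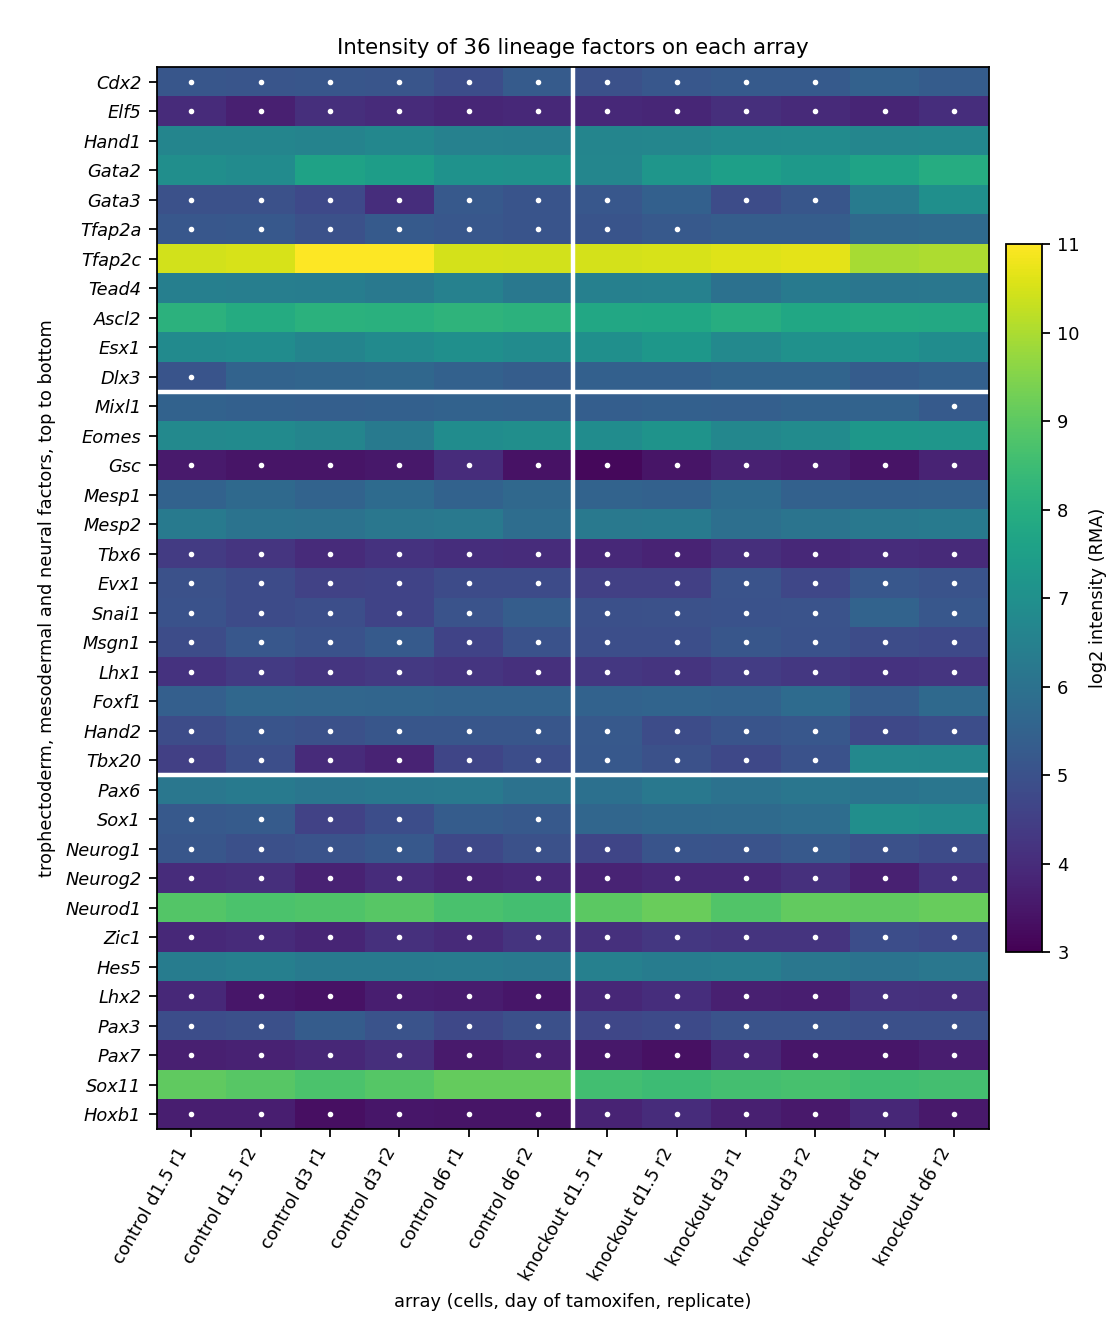
Log2 intensity of the 36 factors (rows, by lineage) on each of the 12 arrays (columns, controls left of the white line and knockout cells right), with white dots where a value is at or under the background limit of 39.8. Sox1, Tbx20 and Gata3 carry no dots in the knockout arrays of day 6, while Elf5, Gsc, Tbx6, Pax7 and Hoxb1 carry dots on all 12 arrays.

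On day 1.5, 1 factor rose, the neuroectoderm factor Sox1, and 2 fell, the paraxial mesoderm factor Tbx6 and the neural factor Sox11. These 3 are 8.33% of the members, where 9.91% of all genes passed the same test, 5.93% higher and 3.98% lower. The median log2 fold change was 0.012 over the members and 0.0028 over all genes. The remaining 33 factors had log2 fold changes from -0.38 for Evx1 to 0.36 for Tbx20, neither past the threshold. Knockout arrays lay above both controls for 9 members and below both for 8, against 28.0% and 25.0% of all genes. In total RNA from a culture, more RNA per cell and more cells of a given kind cannot be told apart.

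On day 3, 3 factors rose, one from each lineage: Sox1, the heart mesoderm factor Tbx20 and Hand1, a factor of trophoblast giant cells and lateral mesoderm. The AP-2 factor Tfap2c fell. These 4 are 11.1% of the members, where 23.4% of all genes passed, 13.3% higher and 10.0% lower. The median was 0.058 over the members and 0.028 over all genes. The other 32 ranged from -0.31 for Pax7 to 0.60 ± 0.25 (SE) for Gata3, whose adjusted p was 0.13. Over 13 alternatives the value for Gata3 ran from -0.07 to 0.96. The highest came without control replicate 1 of that day. The lowest came with the controls of the other days in place of those of day 3, so the difference rests on the day 3 controls. Knockout arrays lay above both controls for 12 members and below both for 7, against 33.0% and 24.2% of all genes.

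On day 6, 9 factors rose and 3 fell. The rises were in Hand1, Gata2, Gata3 and Tfap2a of the placental group, Tbx20 of the mesodermal group, and Sox1, Neurod1, Zic1 and Lhx2 of the neural group. The falls were in Tfap2c and Ascl2 of the placental group and Sox11 of the neural group. These 12 are 33.3% of the members, close to the 32.5% of all genes that passed, 17.2% higher and 15.3% lower. The median log2 fold change was 0.051 over the members and -0.0013 over all genes. By lineage, 6 of 11 placental factors passed, 1 of 13 mesodermal factors and 5 of 12 neural factors. Knockout arrays lay above both controls for 14 members and below both for 8, against 32.7% and 32.4% of all genes.

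**Figure D2:**
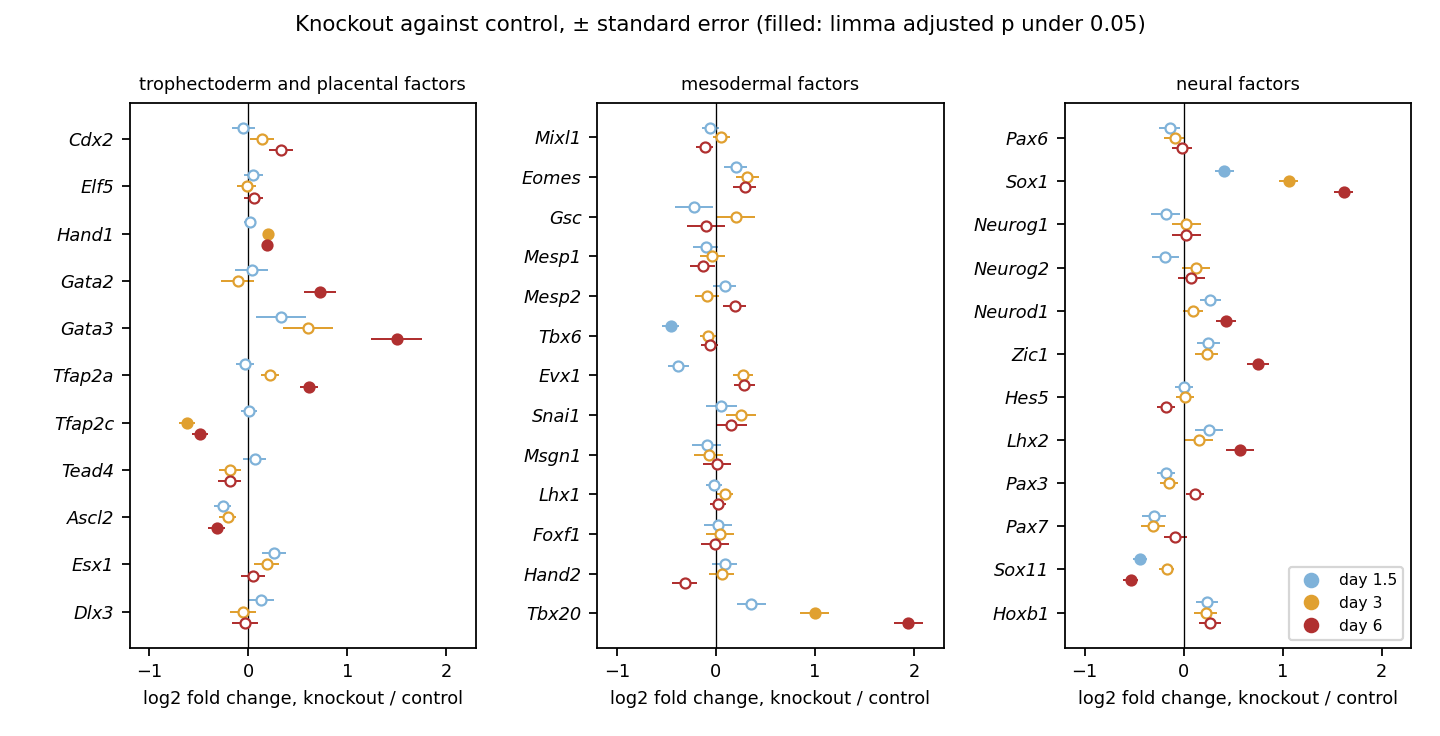
Log2 fold change of knockout over control, with standard error, for the 36 factors by lineage on days 1.5, 3 and 6 (filled points have a limma adjusted p under 0.05). Tbx20, Sox1 and Gata3 reach 1.94, 1.62 and 1.50 on day 6, and 12 of the 13 mesodermal factors have open points on that day.

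Sox1, an HMG-box factor of the early neural plate, passed on every day. Its intensity was 37.8 and 39.2 in controls and 49.6 and 52.9 in knockout cells on day 1.5. It was 24.0 and 29.8 against 54.2 and 57.7 on day 3, and 40.3 and 37.9 against 124.4 and 115.7 on day 6. Every knockout array was above every control array, while the control means stayed under the background limit. The log2 fold changes were 0.41 ± 0.097, 1.06 ± 0.097 and 1.62 ± 0.097 (SE), with limma adjusted p of 0.03, 8.1e-05 and 3.5e-06. Since the controls were at background, the size is a bound: knockout cells were at least 1.29-fold, 1.41-fold and 2.99-fold higher, with each control array set to the limit or to its own value, whichever was higher. The call of day 1.5 was lost without any 1 of its 4 arrays (adjusted p 0.084 to 0.15), whereas those of days 3 and 6 were kept under every alternative run for them. Sox1 was among the dimmest 40% of genes, so the alternative that left those out did not include it. On day 3, where the controls were low, the value was 0.53 against the controls of days 1.5 and 6 (adjusted p = 0.002), and 0.52 with the mean of both probe sets.

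Tbx20, a T-box factor of the heart and lateral mesoderm, had 23.0 and 30.5 in controls and 36.6 and 31.4 in knockout cells on day 1.5. On day 3 it had 15.7 and 13.9 against 26.9 and 32.3, and on day 6 it had 25.6 and 29.7 against 106.9 and 105.3. Only the knockout arrays of day 6 were above the background limit. The log2 fold change was 0.36 on day 1.5, short of the threshold, then 1.00 ± 0.15 (adjusted p = 0.0014) and 1.94 ± 0.15 (adjusted p = 1.4e-05). Both groups were at background on day 3, and the rise of day 6 was at least 2.67-fold over that limit. The controls of day 3 were low for this gene, at -0.84 against those of day 1.5 (adjusted p = 0.0031). Set against the controls of days 1.5 and 6, the knockout arrays of day 3 differed by 0.12 (adjusted p = 0.53), so the call of day 3 rests on the controls of that day.

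The other 12 mesodermal factors did not pass on day 6 and ranged from -0.32 for Hand2 to 0.29 ± 0.12 for Eomes. Eomes, a T-box factor of both the primitive streak and the trophoblast, had 119.3 and 123.2 in controls and 150.0 and 146.3 in knockout cells on day 6 (adjusted p = 0.09). Its arrays did not overlap, and its adjusted p was 0.047 once the dimmest 40% of genes were left out, which left 10916 genes and 12 members. Mixl1, a homeobox factor of the streak, differed by -0.11 ± 0.085 (adjusted p = 0.38). Tbx6 had 21.1 and 18.8 in controls and 15.2 and 13.9 in knockout cells on day 1.5, a log2 fold change of -0.46 ± 0.087 (adjusted p = 0.013). All its values were under the background limit, and the call was lost without control replicate 1 (adjusted p = 0.083) or knockout replicate 2 (0.088) of that day.

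Gata3, a zinc finger factor of the trophectoderm that also acts in other lineages, had 38.1 and 33.8 in controls and 80.5 and 127.2 in knockout cells on day 6. Both control values were under the background limit and both knockout values above it, although the knockout pair was far apart. The log2 fold change was 1.50 ± 0.25 (limma adjusted p = 0.0017), a rise of at least 2.54-fold over the limit. On day 1.5 the values were 31.9 and 31.6 against 36.2 and 44.0, and on day 3 they were 27.1 and 16.5 against 29.3 and 35.3. Neither of these differences passed.

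Its relative Gata2 was above background in all groups. It had 136.5 and 132.9 in controls and 197.6 and 250.5 in knockout cells on day 6, with no overlap (log2 fold change 0.72 ± 0.16, adjusted p = 0.0084). The call was lost without knockout replicate 2 of day 6, where the value was 0.55 (adjusted p = 0.065). On days 1.5 and 3 the arrays of the 2 genotypes overlapped.

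The 2 AP-2 factors of the list, which act together in trophoblast, went opposite ways on day 6. Tfap2a had 35.9 and 33.8 in controls and 52.0 and 54.6 in knockout cells, crossing the background limit (0.61 ± 0.093, adjusted p = 0.00092), a rise of at least 1.34-fold. Tfap2c, also a factor of germ cells and of the pluripotent state, had 1448 and 1398 against 1001 and 1029 (-0.49 ± 0.082, adjusted p = 0.0017). On day 3 Tfap2c had 2217 and 2682 in controls and 1548 and 1624 in knockout cells (-0.62 ± 0.082, adjusted p = 0.00068). The controls of day 3 were high for it, by 0.76 over day 1.5 (adjusted p = 0.00027). Against the controls of days 1.5 and 6 the same knockout arrays were higher by 0.15 (adjusted p = 0.17), the reverse direction. The fall of day 6 was kept under every alternative run for it.

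Ascl2, a basic helix-loop-helix factor of the spongiotrophoblast, had 294.8 and 281.1 in controls and 234.1 and 227.6 in knockout cells on day 6 (-0.32 ± 0.087, adjusted p = 0.02). Hand1 had 90.8 and 90.4 against 102.1 and 104.6 (0.19 ± 0.055, adjusted p = 0.026), and 95.8 and 104.7 against 113.8 and 116.9 on day 3 (0.20 ± 0.055, adjusted p = 0.026). These are small differences, and on day 6 both genes lost the call without any 1 of the 4 arrays. The call for Hand1 was lost under 7 of 14 alternatives on day 3 (adjusted p of 0.0029 to 0.16 over them) and 8 of 13 on day 6 (0.0081 to 0.6). Without control replicate 1 of day 3 its value was 0.14 (adjusted p = 0.13), without knockout replicate 1 it was 0.22 (0.072) and without knockout replicate 2 it was 0.18 (0.11). With the mean of its probe sets it differed by 0.05 on day 6. Cdx2, which starts the trophectoderm programme, had 29.6 and 38.9 in controls and 45.2 and 40.3 in knockout cells on day 6 (0.33 ± 0.12, adjusted p = 0.064). Elf5 differed by 0.05 ± 0.098 (adjusted p = 0.74), and its 12 values ran from 13.1 to 16.8. Tead4, which acts upstream of Cdx2, and the placental homeobox factors Esx1 and Dlx3 also missed the threshold on all days.

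Among the neural factors that rose on day 6, Zic1 and Lhx2 stayed under the background limit on all 12 arrays. Zic1, a zinc finger factor of the dorsal neural tube, had 15.5 and 18.5 in controls and 29.9 and 27.2 in knockout cells (0.75 ± 0.11, adjusted p = 0.00088). Lhx2, a LIM homeobox factor of the forebrain and eye field, had 12.3 and 11.1 against 17.5 and 17.2 (0.57 ± 0.14, adjusted p = 0.013). The call for Lhx2 was lost without control replicate 2 (adjusted p = 0.079), knockout replicate 1 (0.062) or knockout replicate 2 (0.052) of day 6, and that for Zic1 was kept under every alternative run for it, although its value fell to 0.36 with the mean of its probe sets. Both genes were among the dimmest 40%, so the alternative that left those out did not include them. With both groups at background, the size of either difference is not measured.

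Neurod1, a basic helix-loop-helix factor of differentiating neurons, was bright in all cells. It had 417.3 and 391.4 in controls and 530.2 and 559.6 in knockout cells on day 6 (0.43 ± 0.10, adjusted p = 0.011). The call was lost without control replicate 2 or knockout replicate 2 of that day (adjusted p = 0.065 for each). Sox11, a factor of neural progenitors and young neurons, went down. It had 531.3 and 480.5 in controls and 384.0 and 361.5 in knockout cells on day 1.5 (-0.44 ± 0.074, adjusted p = 0.0075). On day 3 it had 422.0 and 477.8 against 393.1 and 404.1 (-0.17, adjusted p = 0.13), and on day 6 it had 553.7 and 554.4 against 377.2 and 388.5 (-0.53 ± 0.074, adjusted p = 0.00054). The knockout arrays were below both controls on all 3 days. The call of day 1.5 was lost without control replicate 1 (adjusted p = 0.053) or knockout replicate 2 (0.058). The 7 other neural factors ranged from -0.18 for Hes5, a Notch target, to 0.27 for Hoxb1 on day 6.

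**Figure D3:**
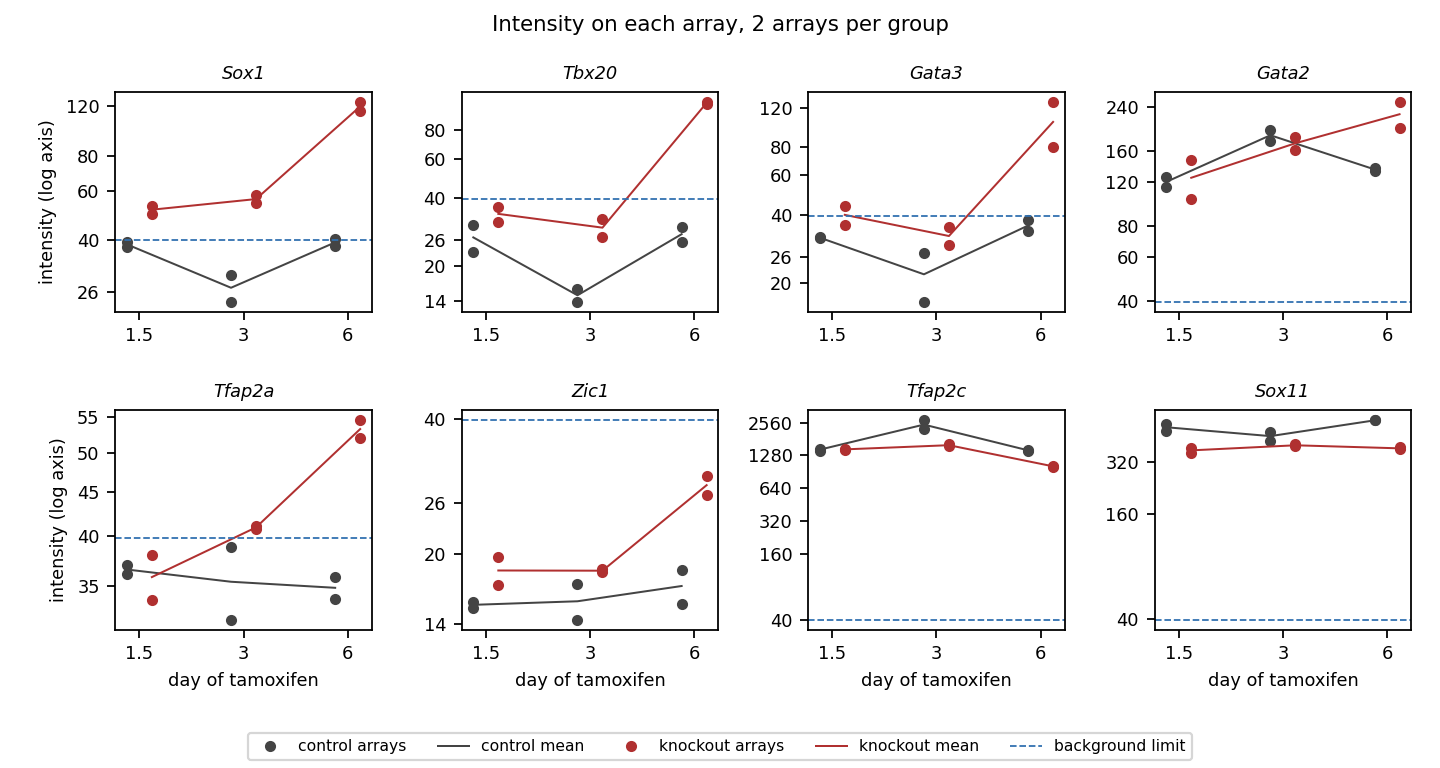
Intensity on each array (log axis, points) and group mean (lines) against day of tamoxifen for 8 factors, controls in grey and knockout cells in red, with the background limit as a dashed line. The knockout arrays of day 6 lie above both controls for Sox1, Tbx20, Gata3, Gata2, Tfap2a and Zic1 and below both for Tfap2c and Sox11, and Zic1 remains under the limit.

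The 36 factors were read by 72 probe sets, of which 35 were at background in all groups, and 23 factors had more than 1. Each was also tested alone, with p-values adjusted over all 34958 probe sets that had 1 symbol. Pax6, the paired-box factor of eye and forebrain, had 5 probe sets that did not move together. Its brightest, 1456342_at, differed by -0.02 ± 0.10 on day 6. The probe set 1419271_at had 59.6 and 58.1 in controls and 157.2 and 183.3 in knockout cells on day 6 (1.53 ± 0.10, adjusted p = 9.2e-06). On day 3 it had 39.5 and 36.9 against 96.6 and 95.5 (1.33 ± 0.10, adjusted p = 5.2e-05), and on day 1.5 it had 45.9 and 51.7 against 61.7 and 52.6 (0.23 ± 0.10, adjusted p = 0.27). Another, 1452526_a_at, rose by 0.35 ± 0.082 on day 6 (adjusted p = 0.012), under the background limit, and none of the 5 fell on any day. Whether Pax6 is called higher therefore depends on the probe set chosen, and the positions within the transcript were not analysed here.

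The day 6 rises of Sox1, Tbx20, Zic1, Hand1 and Gata2 each rested on 1 of several probe sets. The second one of Sox1, 1422205_at, differed by -0.06 ± 0.082 on day 6 (adjusted p = 0.69), and those of Tbx20, 1422219_a_at and 1425158_at, differed by -0.07 ± 0.10 and 0.16 ± 0.15. All 3 of these were at background in every group. The second ones of Zic1, 1439627_at, and Hand1, 1448750_at, were also at background and differed by -0.04 ± 0.085 and -0.09 ± 0.085. That of Gata2, 1428816_a_at, was above it and differed by 0.42 ± 0.15, with an adjusted p of 0.078. With the mean of all probe sets in place of the brightest, the day 6 values were 0.78 for Sox1 and 0.68 for Tbx20, both still past the threshold. The brightest was chosen over control and knockout arrays together, so a rise in knockout cells could favour the choice. For Tbx20 the probe set used, 1453351_at, had control means of 26.75, 14.79 and 27.65 on days 1.5, 3 and 6. Those of 1422219_a_at were 21.33, 23.56 and 22.64, lower on days 1.5 and 6 but higher on day 3. By mean log2 over the control arrays alone, 1422219_a_at was slightly brighter than 1453351_at. A choice by controls would thus have taken 1422219_a_at for Tbx20, which did not rise on day 6. The fit over all genes was not rerun with that choice. Sox11 was lower on 5 of its 6 probe sets on day 6, from -1.11 to -0.53, and the sixth differed by -0.12. On day 3, 5 of the 6 fell, from -1.38 to -0.43, while the brightest did not pass. All 3 probe sets of Tfap2c fell on days 3 and 6, and all 3 of Ascl2 fell on day 6. The probe sets used for Tfap2c and Ascl2, and 1 of the 6 of Sox11, carry a suffix that marks probes shared with other transcripts.

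**Figure D4:**
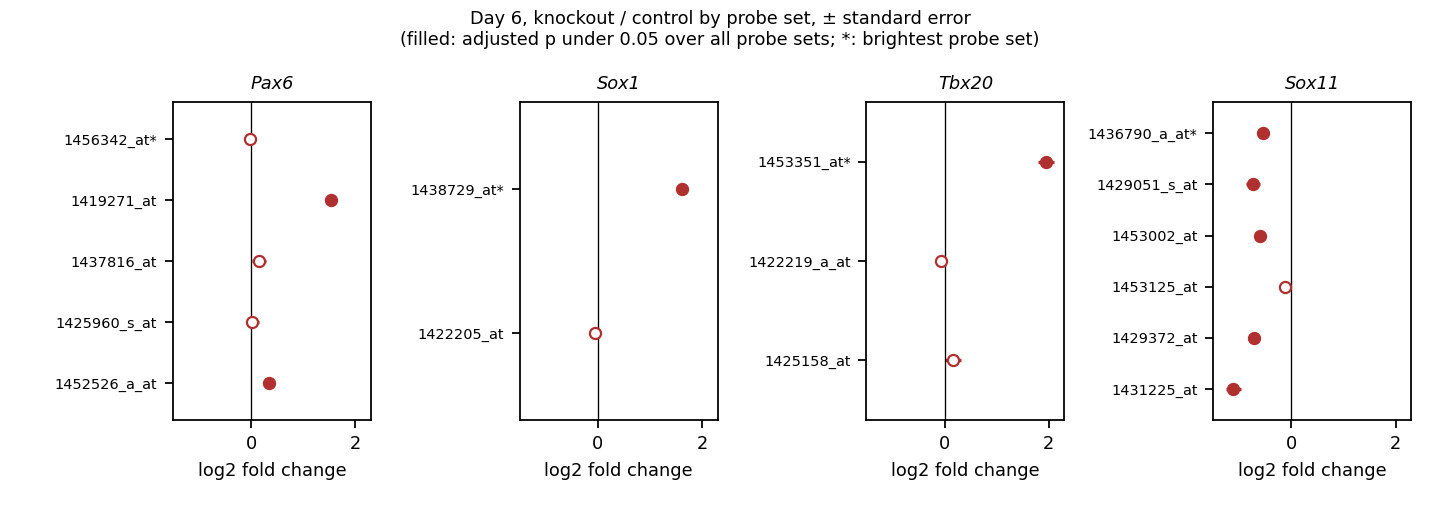
Log2 fold change of knockout over control on day 6, with standard error, for every probe set of Pax6, Sox1, Tbx20 and Sox11 (filled points have an adjusted p under 0.05 over all probe sets, and a star marks the brightest). For Pax6 the brightest probe set is at -0.02 and 1419271_at at 1.53, and for Sox11 5 of 6 are filled and below 0.

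Whether the knockout effect itself differed between days was tested within the same fit. Between days 1.5 and 3 it became higher for Evx1 and Sox1 and lower for Tfap2c, where 15.0% of all genes passed (7.62% higher, 7.34% lower). Between days 1.5 and 6 it became higher for Evx1, Sox1, Tbx20 and Tfap2a and lower for Tfap2c, where 19.3% passed (9.32% and 10.0%). Between days 3 and 6 it became higher for Gata2, Sox1 and Tbx20 and lower for Sox11, where 16.4% passed (7.69% and 8.75%). Sox1 was past the threshold in all 3 of these tests. The members' counts were 3, 5 and 4 of 36.

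The controls show what the factors did without CreERT2. From day 1.5 to day 3, 4 factors passed in control cells: Tfap2c, at 0.76, and Gata2, at 0.62, were higher, and Sox1, at -0.52, and Tbx20, at -0.84, were lower (adjusted p of 0.00027, 0.022, 0.004 and 0.0031). In the same comparison 27.3% of all genes passed, 9.12% higher and 18.2% lower. From day 1.5 to day 6, 0 of 36 factors passed in limma, and 2 had an unadjusted p under 0.05, where 1.57% of all genes passed (1.09% higher, 0.473% lower). These comparisons share control arrays with the knockout comparisons.

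Lists of related genes were counted beside the factors. Their counts are set against the shares of all genes called, 9.91% on day 1.5, 23.4% on day 3 and 32.5% on day 6. Of 13 measured trophoblast products, 4 rose and 2 fell on day 6 (46.2%). Sct, the gene for the hormone secretin, was higher on all 3 days, by 0.54, 0.35 and 0.88, and the trophoblast surface gene Plet1 by 0.46 on day 6. The placental homeobox genes Rhox6 and Rhox9 fell, by 0.41 and 0.40 on day 6. Cdh3 and Cyp11a1 did not pass on any day. On day 1.5, 1 rose and 1 fell (15.4%), and on day 3, 1 rose and 3 fell (30.8%).

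Of 23 measured gastrulation signals and mesoderm products, 3 rose and 6 fell on day 6 (39.1%, where 32.5% of all genes passed). Bmp4, a signal that favours mesoderm and trophoblast fates over neural ones, had 1253 and 1241 in controls and 402.3 and 365.4 in knockout cells. Its log2 fold changes were -0.52, -0.98 and -1.70 on days 1.5, 3 and 6 (adjusted p of 0.0019, 1.7e-05 and 2.9e-07). Lefty2, an inhibitor and target of Nodal signals, fell on days 1.5 and 6, at -0.62 and -1.47. The heart progenitor factor Isl1 and the Notch ligand Dll1 rose on day 6, by 1.14 and 1.00. Isl1 went from 27.9 and 22.5 in controls to 54.7 and 56.0, and Dll1 from 71.9 and 75.6 to 157.1 and 139.1. On day 1.5, 1 rose and 4 fell (21.7%, all genes 9.91%), and on day 3, 5 rose and 1 fell (26.1%, all genes 23.4%).

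Of 21 measured neural products and further neural factors, 3 rose and 3 fell on day 6, and 5 rose and 1 fell on day 3 (28.6% on each day, where 32.5% and 23.4% of all genes passed). Gbx2 and Sox3, both factors of the early neural plate that stem cells also express, were higher than the day 3 controls by 0.88 and 0.76. Gbx2 had 108.6 and 117.0 in those controls and 204.4 and 210.7 in knockout cells. Its controls had 353.7 and 333.0 on day 1.5 and 267.3 and 293.6 on day 6, all above the knockout arrays of day 3. The knockout arrays of Sox3 on day 3 were above the controls of all days. The neuronal cytoskeleton gene Map2 was lower on day 3, at -0.50, and higher on day 6, at 0.86. Irx3 rose by 0.45 on day 6, and the neural progenitor genes Nes and Zic2 did not pass on any day. On day 1.5, 1 rose and 0 fell by limma (4.76%, all genes 9.91%), with 5 at an unadjusted p under 0.05. Of 12 genes of Polycomb repressive complex 2, 2 rose on day 1.5, 3 rose and 1 fell on day 3, and 1 rose and 3 fell on day 6 (16.7%, 33.3% and 33.3%), with Aebp2 at 0.44 and Phf19 at -0.65 on day 6.

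Markers of other states moved as well, and their part in the results was not tested. Beside their counts, 9.91%, 23.4% and 32.5% of all genes passed on days 1.5, 3 and 6. Of 10 pluripotency markers, 2 fell on day 1.5, 1 rose and 3 fell on day 3, and 2 fell on day 6 (20%, 40% and 20%). Klf4 was lower on each day, at -0.42, -0.40 and -0.44, and Pou5f1 passed on none. Of 10 primitive endoderm markers, 4 fell on day 1.5, 3 rose and 1 fell on day 3, and 1 rose and 3 fell on day 6 (40% on each day). The 3 rises of day 3, in Sox7, Foxa2 and Lama1, were over low controls of that day. Their knockout arrays of day 3 lay below all controls of days 1.5 and 6. Lama1 had 460.5 and 457.9 against 419.3 and 394.6 on day 3, and its controls had 1009 and 960.4 on day 1.5. On day 6 Foxa2 was at 1.02, Dab2 at -0.65, Gata6 at -0.63 and Gata4 at -0.33. Gata4 had 43.87 and 39.73 in controls and 34.01 and 32.55 in knockout cells, where it was at background. Afp was at background in both groups of that day. The summed intensity of that list on day 6 was 1849 to 1861 in controls and 1617 to 1683 in knockout cells. Of 12 fibroblast or feeder markers, 4 fell on day 1.5, 2 rose on day 3, and 2 rose and 5 fell on day 6 (33.3%, 16.7% and 58.3%). Their sum on day 6 was 2681 to 2903 in controls and 3534 to 3612 in knockout cells, and most of it came from Acta2 and Tagln. Acta2 had 1034 and 1076 in controls and 1534 and 1668 in knockout cells, and Tagln 1158 and 1270 against 1631 and 1570. These were also the 2 genes that rose on day 3, where their knockout arrays lay below all controls of days 1.5 and 6. Tagln had 399.0 and 409.5 in knockout cells and 174.6 and 187.9 in controls of day 3, with 760.2 and 744.8 in controls of day 1.5. The 5 that fell on day 6 were Col1a1, at -0.69, Col1a2, at -0.60, Thy1, at -0.82, Cav1, at -0.45, and Prrx1, at -0.43. Col3a1, Postn, Lum, Dcn, Twist1 and Prrx1 were at background in both groups of day 6.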

How the data were processed

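Total RNA was hybridised to 12 Affymetrix Mouse Genome 430 2.0 arrays. The deposited intensities, 1 per probe set, come from RMA (version not given), per the submitters' processing notes. RMA subtracts background and brings all arrays close to a common distribution, so a shift of all genes might not show. They span 5.51 to 34993 and are linear, where log2 values had been assumed, so log2 was taken. Array medians were 42.4 to 44.7, and the number of arrays limits the precision. The medians split by day, with all arrays of day 3 at 44.36 or above and all others at 43.04 or below.

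Of 45101 probe sets, 34958 had 1 symbol in the platform annotation, 932 several and 9211 none. The brightest probe set per gene gave 18194 genes. Across all of them limma 3.58.1 (R 4.3.3) fitted a mean per group over the 12 arrays with eBayes (6 residual and 3.04 prior degrees of freedom). Benjamini-Hochberg adjusted p-values under 0.05 were called. Standard errors come from this fit. The labels do not state separate cultures for replicate arrays, so each p-value reflects array-to-array spread only, and that may be technical. The fit was tested on simulated data. Figures used matplotlib 3.10.9.

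The members, gene lists and tests were chosen with earlier results of these data known. Array values are given for members past the threshold on each day that they passed, for some of them on other days, and for Thap11 on all days. For each other list the plan was to name up to 4 called members with the largest change and 2 of the brightest others. Not all of these are named, and some genes outside that plan are. Eomes, Mixl1, Elf5 and Cdx2, and other members named with values, were chosen after their values were seen. Replicate numbers did not pair the arrays: the differences between replicates of control and knockout cells correlated at -0.004, -0.057 and 0.028 on days 1.5, 3 and 6. Alternatives were a replicate term, only the arrays compared, other eBayes settings, array weights, no dim genes, the mean of probe sets, other centring, other controls for day 3 and leaving out each array.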

Additional observations from a re-analysis of the deposited data

Results flagged for a closer look

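The knockout effect differed between days, by the test of that difference in the limma fit, for 7 factors in 12 instances. For Sox1 the log2 fold change was 0.65 higher on day 3 than on day 1.5 (adjusted p = 0.014), 1.21 higher on day 6 than on day 1.5 (0.00043) and 0.55 higher on day 6 than on day 3 (0.025). For Tbx20 it was 1.59 higher on day 6 than on day 1.5 (0.00098) and 0.95 higher than on day 3 (0.016). Evx1, a homeobox factor of the primitive streak, had an effect 0.65 higher on day 3 and 0.67 higher on day 6 than on day 1.5 (0.018 and 0.013), although its effect passed on no single day and all its values were under the background limit. For Tfap2a the effect was 0.65 higher on day 6 than on day 1.5 (0.0088), and for Gata2 it was 0.83 higher on day 6 than on day 3 (0.041). For Tfap2c the difference was -0.63 for day 3 minus day 1.5 (0.0076) and -0.50 for day 6 minus day 1.5 (0.017). For Sox11 it was -0.36 for day 6 minus day 3 (0.045). The controls of day 3 stood apart for Sox1, Tbx20, Gata2 and Tfap2c, and their part in the differences that use day 3 was not tested.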

How the results depend on the processing

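The calls of day 6 for Sox1, Tbx20, Gata3, Tfap2a, Zic1, Tfap2c and Sox11 were kept under every alternative run for them. Of these, Sox1, Tbx20, Gata3, Tfap2a and Zic1 were among the dimmest 40% of genes, so the run without those genes did not include them. The fall of Tfap2c on day 3 reversed to 0.15 against the controls of days 1.5 and 6. A replicate block changed no count of knockout against control calls by over 1.5 times, and took the lower calls of the day 6 minus day 3 difference from 1 to 0. With a replicate block within each day that count was also 0, the higher one was 1 in place of 3, and the lower calls in controls of day 3 were 1 in place of 2. With only the arrays compared, the counts of day 1.5 were 0 higher and 0 lower (limma, with 2 arrays a group), in place of 1 and 2, and the lower day 6 minus day 3 count was 0. With trend and robust eBayes there were 2 higher on day 1.5, and 4 and 5 higher for the day 3 minus day 1.5 and day 6 minus day 3 differences, in place of 2 and 3. Leaving out the dimmest 40% of genes left 12 members, of which 4 were higher on day 6 (Hand1, Gata2, Neurod1 and Eomes) and 0 on day 1.5. Tfap2c, Ascl2 and Sox11 were lower on day 6 in that run, and its share over all 10916 genes is not given here. The higher counts of the differences were then 0, 1 and 1, and the lower count in controls of day 3 was 1. With the mean of all probe sets, 0 were higher on day 1.5 and 2 lower on day 3. The day 3 minus day 1.5 difference then had 1 higher and 2 lower, day 6 minus day 1.5 had 2 lower, and day 6 minus day 3 had 0 in either direction. Array weights gave 7 higher in place of 4 for day 6 minus day 1.5, and 1 higher in controls of day 3. Sox1 on day 3 and Zic1 on day 6 kept their calls at 0.52 and 0.36 with the mean of probe sets. Median centring and quantile normalization gave 5 and 4 lower in those controls.

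Leaving out each array in turn gave 0 to 1 higher and 0 to 2 lower on day 1.5, 1 to 2 lower on day 3 and 6 to 9 higher on day 6. For the differences it gave 0 to 2 higher and 1 to 2 lower (day 3 minus day 1.5), 0 to 2 lower (day 6 minus day 1.5), and 0 to 3 higher and 0 to 1 lower (day 6 minus day 3). In controls of day 3 it gave 1 to 2 higher and 2 to 4 lower. The members at background throughout were 9 or 25, in place of 14, with the 90th or 99th percentile. Over all genes, 1803 calls on day 1.5 became 863 with a block within each day, 455 with only the arrays compared, 2756 with trend and robust eBayes and 714 to 833 without 1 array. The 4250 calls of day 3 became 2506 with only the arrays compared. The 285 calls in controls of day 6 became 0, 0 and 894 under the same 3 settings. The cause of these changes was not tested, except that fewer genes or arrays entered where some were left out. Intensities near background limit Zic1, Lhx2, Tbx6 and Evx1.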

Other observations

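Neurog1, a proneural basic helix-loop-helix factor, had a second probe set, 1438551_at, that was under the background limit on all arrays and higher in knockout cells by 0.43 ± 0.085 on day 1.5 and 0.35 ± 0.085 on day 6 (limma adjusted p of 0.022 and 0.015 over all probe sets). Its brightest probe set differed by -0.18 and 0.03 on those days and did not pass. A second probe set of Tfap2a, 1426048_s_at, rose by 0.34 on day 3 and 0.68 on day 6 (adjusted p of 0.036 and 0.00076). It was at background in all groups and carries the suffix of shared probes. The one used for the gene passed on day 6 only. The third, 1421995_at, was also at background in all groups and differed by 0.14 ± 0.068 on day 6 (adjusted p = 0.2). The probe set 1432018_at of Ascl2 fell on day 3, at -0.43 (adjusted p = 0.0051), where the brightest did not pass. These probe sets were singled out after their values were seen.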
